A study of Mus musculus with 6 samples.

Results

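Rev-erbα is a nuclear receptor of the circadian clock that represses transcription by recruiting the corepressor NCoR and the histone deacetylase HDAC3. At clock genes it contacts DNA through its own DNA-binding domain (DBD), whereas in liver it is also known to sit on chromatin through other factors, among them HNF6, a Onecut family factor of hepatocytes, at sites linked to lipid metabolism. Distal sites lie far from any transcription start site (TSS) and are where enhancers, the regulatory elements that act on promoters over a distance, are found.

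The sites described here are the distal ones among Rev-erbα binding sites that a deposited list names as independent of the DBD. A site was taken as distal when its stated distance to the TSS exceeded 10 kb in either direction, and 1690 peaks met this rule. They made up 47.2% of the 3579 peaks of the DBD-independent list (95% Wilson interval 45.6 to 48.9%) and 14.4% of the 11767 peaks of the ZT10 list, the list of all Rev-erbα peaks called on pooled samples (13.7 to 15.0%). Each peak is 150 bp wide, and all distal peaks were found in the ZT10 list with identical coordinates.

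The study assayed livers of male C57BL/6 mice (strain written C57B/6 in the sample labels), aged 12 weeks and kept on normal chow and a normal light and dark schedule, by chromatin immunoprecipitation sequencing (ChIP-seq) with a Rev-erbα antibody. All livers were taken at zeitgeber time (ZT) 10, late in the light phase. The labels give 3 wild-type (WT) samples and 3 HNF6 KO samples, with no added treatment in either group, and do not say how HNF6 was depleted or in which cells. Both deposited lists belong to the whole series, so binding was not compared between the genotypes, no spread between livers can be given and the depth of each library is unknown. No sample carries an altered DBD, and the name of the list could not be checked against these samples.

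Beside its position, each DBD-independent peak carries a signed distance and 2 whole numbers that the file does not label. What these numbers measure is not stated, and they are called the first and second value here. They serve only to rank and describe peaks within the list. Negative distances are called upstream and positive ones downstream, after HOMER's convention for a TSS, and the position from which a distance is counted is called the reference point. For comparison, 1073 peaks of the same list lay within 1 kb of their reference point (promoter-proximal peaks) and 816 at 1 to 10 kb (intermediate peaks). Class comparisons used Fisher's exact test (two-sided), with p-values adjusted by the Benjamini-Hochberg method over 11 tests, of which 3 passed 0.05. Peaks are not biological replicates and several can share a reference point, so every p-value and interval covers counting error only.

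The stated distances behaved as distances to the nearest reference point, as the word distal requires. Where several peaks share a point, its position and strand can be worked out from their distances. In 80 pairs of a distal peak and such a point that was not its own, at up to 100 kb, the point lay nearer than the stated distance in 0. A peak's distance also marks a span around it that holds no reference point, and 561 listed peaks fell inside the span of another listed peak. Of these, 0 had a stated distance shorter than their position in that span allows, at a tolerance of 1 bp. A peak that shares its point with the peak of the span meets this bound in any case. How many of the 561 were of this kind was not counted.

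Distal peaks became fewer per kb with distance over the bands used here. The median absolute distance was 31699.5 bp, with quartiles at 18382.5 and 53510.5 bp. Between 10 and 20 kb there were 496 peaks, or 49.6 per kb of distance, counted on both sides together. Between 20 and 30 kb there were 31.7 per kb, between 30 and 50 kb 19.6, between 50 and 75 kb 11.8 and between 75 and 100 kb 7.6. The intermediate peaks, at 90.7 per kb, stood above all of these, and the promoter-proximal peaks numbered 1073 in a single kb. How much of the genome lies at each distance was not measured, so these counts do not give a density of binding. No listed peak lay beyond 99816 bp, so sites farther than 100 kb from a TSS are not among the distal peaks.

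The limit of 10 kb cut through a continuous range of distances. Just inside it on the upstream side were the peaks at chr11:20981232-20981381, at -10021 bp with a first value of 19 and a second of 18, and at chr5:92522749-92522898, at -10062 bp with values of 4 and 5. Just outside stood chr1:167648149-167648298, at -9998 bp with values of 8 and 6, and chr2:25335168-25335317, at -9973 bp with values of 7 and 10. Downstream, chr16:91678808-91678957 at 10091 bp (values 32 and 35) and chr10:66658528-66658677 at 10104 bp (17 and 13) were inside. The peaks at chr8:97948719-97948868, at 9976 bp (17 and 13), and chr4:32648669-32648818, at 9894 bp (12 and 11), were outside. Coordinates are given 1-based in the mouse build mm9, the build of the submitters' processing notes. The values on either side of the limit overlapped.

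The farthest peaks reached almost 100 kb, and their first values ran from 6 to 43. Farthest upstream were chr4:104339219-104339368, at -99629 bp with values of 18 and 16, and chr10:44910441-44910590, at -98596 bp with values of 22 and 15. Farthest downstream were chr17:11132992-11133141, at 99816 bp with values of 6 and 5, and chr3:86252944-86253093, at 99187 bp with values of 43 and 32. The last of these stood at position 265 of the ZT10 list, and the peak on chromosome 17 at position 8653.

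**Figure D1:**
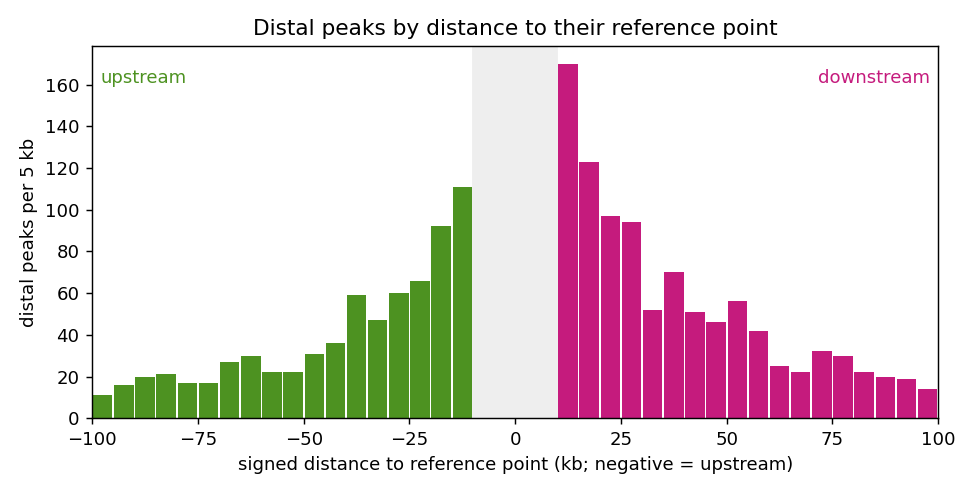
Number of distal peaks (vertical axis) in 5 kb bins of signed distance to the reference point in kb (horizontal axis), with upstream bins in green and downstream bins in magenta; the grey band is the 10 kb on each side that the rule leaves out. The bins next to the band hold 111 peaks upstream and 170 downstream, and the outermost bins hold 11 and 14.

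Distal peaks lay more often downstream than upstream of their reference point, unlike promoter-proximal peaks. Of the 1690 distal peaks, 705 were upstream (41.7%, 39.4 to 44.1%) and 985 downstream (58.3%, 55.9 to 60.6%). Among promoter-proximal peaks 70.5% were upstream (757 of 1073). The difference was -28.8 percentage points (95% interval -32.4 to -25.2, Fisher's exact test, adjusted p = 2e-49). Against intermediate peaks, of which 43.8% were upstream (357 of 816), the difference of -2.03 points was not past the threshold (-6.18 to 2.08, Fisher's exact test, adjusted p = 0.471). Downstream means toward the transcribed side of the TSS, and whether such a peak lies within a gene or beyond its end was not analysed here. How much of the genome lies on each side of its nearest TSS was not measured, so these shares do not give a preference of binding for a side.

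The side of a distal peak did not vary in an ordered way with its distance. The upstream share was 40.9% at 10 to 20 kb (36.7 to 45.3%), 39.7% at 20 to 30 kb (34.5 to 45.2%) and 44.1% at 30 to 50 kb (39.3 to 49.1%). At 50 to 75 kb 118 of 295 peaks were upstream (interval 34.6 to 45.7%), and the share was 44.7% at 75 to 100 kb (37.8 to 51.8%). All 5 intervals overlapped one another, and each lay below the interval of the promoter-proximal peaks, 67.8 to 73.2%. Upstream and downstream distal peaks had the same quartiles of the first value, 7, 12 and 19, and near-equal median positions in the ZT10 list, 4195 and 4168.

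**Figure D2:**
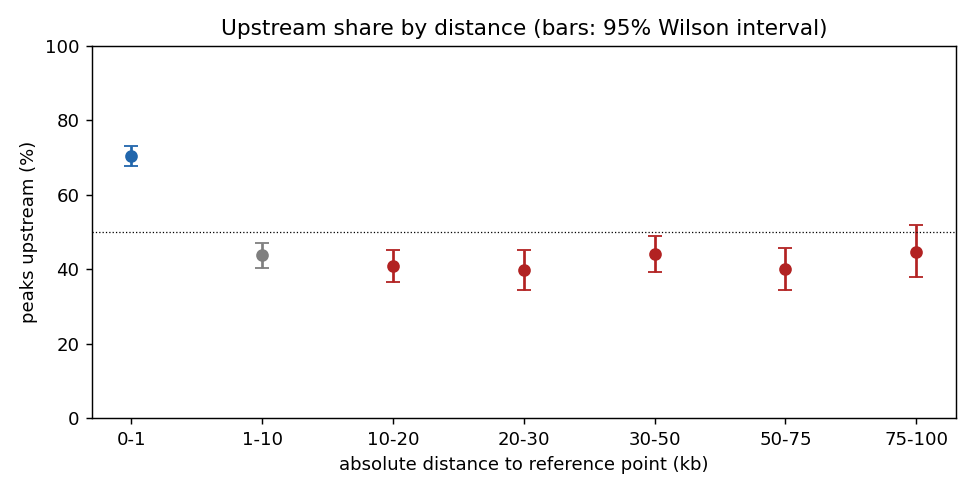
Share of peaks upstream of their reference point in percent (vertical axis) by absolute distance in kb (horizontal axis); points are shares with 95% Wilson intervals, blue for promoter-proximal, grey for intermediate and red for distal peaks, and the dotted line marks 50%. The 5 distal bands sit between 39.7% and 44.7%, and the promoter-proximal band sits at 70.5%.

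Distal peaks were spread more widely over the ZT10 list than promoter-proximal peaks, with more at its head and more at its end. The order of this list follows the authors' values: over the 1690 distal peaks Spearman's rho between position and first value was -0.95, a description in which peaks of one file share libraries and depth. Positions 1 to 1176 held 300 distal peaks (17.8% of the class, 16.0 to 19.6%), against 127 promoter-proximal peaks (11.8%, 10.04 to 13.9%). That difference was 5.92 points (3.21 to 8.53, Fisher's exact test, adjusted p = 8.9e-05). Positions 1 to 5883 held 1086 distal peaks (64.3%) and 763 promoter-proximal peaks (71.1%), a difference in the other direction of -6.85 points (-10.4 to -3.27, Fisher's exact test, adjusted p = 0.00069). Positions 10591 to 11767, the end of the list, held 86 distal peaks (5.09%, 4.14 to 6.24%) and 11 promoter-proximal peaks (1.03%, 0.573 to 1.83%). They also held 27 intermediate peaks (3.31%, 2.28 to 4.77%), an interval that overlaps that of distal peaks. Differences at the end of the list were not tested.

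The centres of the classes lay close together, with median positions of 4183 for distal and 4128 for promoter-proximal peaks. Their quartiles were 1752.75 and 7308.75 for distal peaks and 2182 and 6164 for promoter-proximal peaks. Against intermediate peaks neither difference passed the threshold. They had 18.6% in positions 1 to 1176 (difference -0.876 points, -4.19 to 2.28) and 66.7% in positions 1 to 5883. The difference for the latter was -2.41 points (-6.32 to 1.59, Fisher's exact test, adjusted p = 0.385). Read along the ZT10 list, distal peaks made up 25.5% of positions 1 to 1176 (23.1 to 28.1%), 17.4% of positions 2354 to 3530 and 7.31% of the last 1177 positions (5.95 to 8.94%). Of the first 100 positions 31 were distal, 10 promoter-proximal, 16 intermediate and 43 outside the DBD-independent list.

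**Figure D3:**
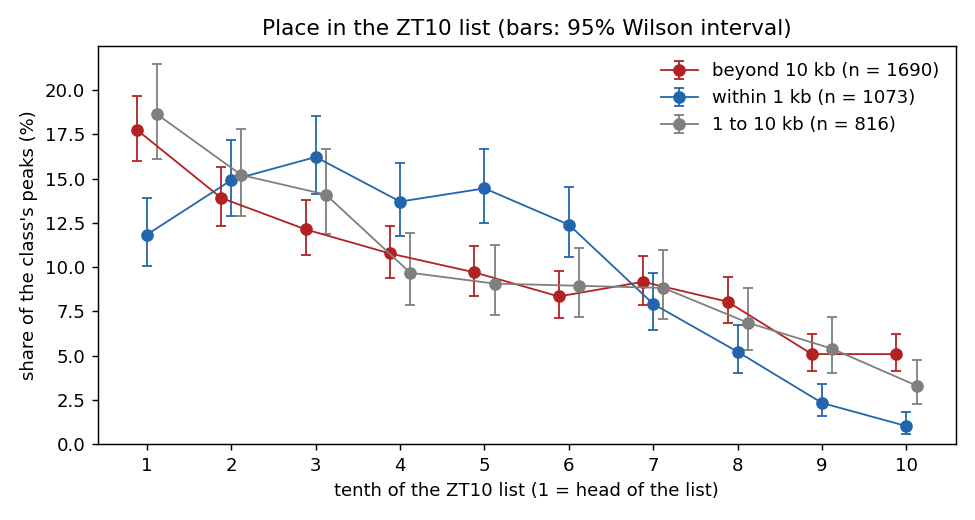
Share of the peaks of each class in percent (vertical axis) in 10 bins of equal size along the ZT10 list (horizontal axis, 1 is the head); points are shares with 95% Wilson intervals for distal (red), promoter-proximal (blue) and intermediate peaks (grey). Distal peaks start at 17.8% and end at 5.09%, while promoter-proximal peaks start at 11.8%, peak at 16.2% in the third bin and end at 1.03%.

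Against promoter-proximal peaks, the first value of distal peaks was spread more widely around an equal median. The order of the ZT10 list largely follows this value, so this is not separate from the spread over that list. Distal peaks had a median first value of 12 with quartiles of 7 and 19 and a range of 1 to 89, and a median second value of 11 with quartiles of 7 and 17. Promoter-proximal peaks also had a median of 12, with quartiles of 9 and 18. First values of 40 or more were found at 73 distal peaks (4.32%, 3.45 to 5.40%) and 23 promoter-proximal peaks (2.14%, 1.43 to 3.20%). First values of 5 or less were found at 202 distal peaks (12.0%, 10.5 to 13.6%) and 55 promoter-proximal peaks (5.13%, 3.96 to 6.61%). Intermediate peaks, with a median of 12 and quartiles of 8 and 20, had first values of 40 or more in 4.29% of cases (3.10 to 5.91%) and of 5 or less in 8.82% (7.07 to 10.97%). The share at or above the list's median of 12 was 52.0% for distal and 56.4% for promoter-proximal peaks, a difference of -4.37 points that was not past the threshold after adjustment (-8.16 to -0.558, Fisher's exact test, adjusted p = 0.0707). Against intermediate peaks it was -0.684 points (-4.84 to 3.49, Fisher's exact test, adjusted p = 0.765).

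Median first values differed little between distances beyond 10 kb. Spearman's rho between absolute distance and first value was 0.03 over the 1690 distal peaks. Median first values by distance were 12, 11, 12, 13 and 13 from the band at 10 to 20 kb outward. Positions 1 to 1176 of the ZT10 list held 18.9% of the peaks at 75 to 100 kb (36 of 190) and 18.8% of those at 10 to 20 kb (93 of 496).

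The distal peaks of highest value stood at the head of the ZT10 list, whose order largely follows these values. The highest first value, 89, with a second value of 76, belonged to chr7:38870144-38870293, which lay 22291 bp downstream of its point at position 4 of the list. Its nearest ZT10 peak was 21.9 kb away. The next, chr11:98616343-98616492, had values of 83 and 56, lay 13230 bp downstream and stood at position 12. At chr1:167351633-167351782 the values were 80 and 54, the distance 38887 bp and the position 10, with the nearest ZT10 peak 38.9 kb away. The highest upstream peaks were chr1:193745714-193745863, with values of 75 and 56 at -14382 bp, and chr15:66845218-66845367, with values of 74 and 50 at -44089 bp. All 5 had a second value lower than their first, as did 61.4% of all distal peaks. Choosing peaks by the highest first value favours this.

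At most distal peaks the second value was the smaller one. It was lower at 1038 peaks (61.4%, 59.1 to 63.7%), equal at 234 (13.8%) and higher at 418 (24.7%, 22.7 to 26.8%), and the ratio of second to first had a median of 0.882. Promoter-proximal peaks had a lower second value in 57.6% of cases, a difference of 3.82 points that was not past the threshold after adjustment (0.0763 to 7.58, Fisher's exact test, adjusted p = 0.102). For intermediate peaks the share was 62.4% (difference -0.957 points, -4.97 to 3.12, Fisher's exact test, adjusted p = 0.727). All ratios of distal peaks lay between 0.671 and 1.47. Those of promoter-proximal peaks ran from 0.677 to 1.46 and those of intermediate peaks from 0.675 to 1.46. The range was thus shared across the list and may have been set when the list was made, which was not tested here. Within it a low first value leaves few whole numbers for the second. First values of 5 or less were found at 12.0% of distal, 5.13% of promoter-proximal and 8.82% of intermediate peaks. How far this bears on the shares above was not tested.

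The ends of the range of ratios were looked at only among the 410 distal peaks with a first value of at least 20. There the highest ratios were 1.45 at chr5:125372397-125372546 (values 22 and 32, 29396 bp downstream) and 1.40 at chr15:101077248-101077397 (values 25 and 35, -19955 bp). The highest ratio of all distal peaks, 1.47, was at a peak of lower first value. The lowest was 0.671 at chr7:79490888-79491037 (values 73 and 49, -39481 bp), followed by 0.675 at the peak on chromosome 11 named above. What the 2 values measure is not stated, so neither end can be tied to a genotype.

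Distal peaks less often had another ZT10 peak within 10 kb than intermediate peaks did. Another peak of the ZT10 list lay within 10 kb of 486 distal peaks (28.8%, 26.6 to 31.0%), against 362 of 816 intermediate peaks (44.4%, 41.0 to 47.8%). The difference was -15.6 points (-19.6 to -11.6, Fisher's exact test, adjusted p = 1.2e-13). This window is as wide as the limit of the rule. It thus took in the reference point of every intermediate peak and of no distal peak. How much of the difference follows from that was not tested. Against promoter-proximal peaks, of which 342 had such a neighbour, the difference was not past the threshold (31.9%, difference -3.12 points, -6.66 to 0.385, Fisher's exact test, adjusted p = 0.162). The order of these last classes depended on the window. Within 5 kb, 18.9% of distal and 22.9% of promoter-proximal peaks had a neighbour (difference -4.05 points, -7.22 to -0.955), and within 50 kb 71.6% and 66.4% (difference 5.24 points, 1.71 to 8.81). Both of these differences passed the threshold. Within 1 kb the shares were 5.86% for distal (4.84 to 7.08%) and 6.74% for intermediate peaks (5.21 to 8.67%), with overlapping intervals. For promoter-proximal peaks the share within 1 kb was 13.0% (11.2 to 15.2%). Differences at 1 kb were not tested.

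Most distal peaks were neither crowded nor isolated. The median gap to the nearest ZT10 peak was 21.9 kb, with quartiles of 8.23 and 57.9 kb, against a median of 13.2 kb for intermediate and 26.7 kb for promoter-proximal peaks. No other ZT10 peak lay within 100 kb of 228 distal peaks (13.5%, 11.9 to 15.2%). This share lay between those of promoter-proximal (15.9%, 171 of 1073) and intermediate peaks (9.31%, 76 of 816). The largest gap, 2678 kb, was at chr16:81138988-81139137 (values 35 and 31, -61880 bp), which stood at position 494 of the ZT10 list. The closest pair, chr15:54878170-54878319 and chr15:54878327-54878476, had centres 157 bp apart and first values of 18 and 8. These peaks were chosen after their values were seen.

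**Figure D4:**
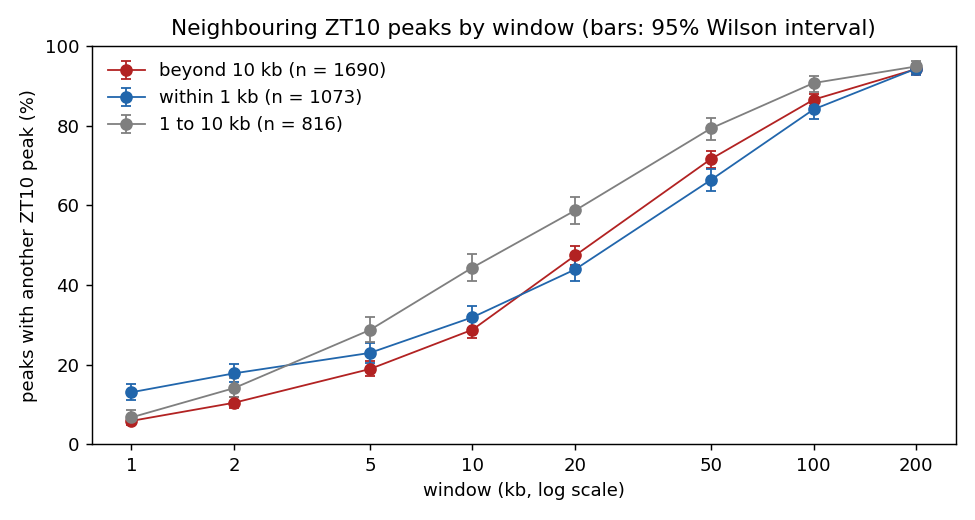
Share of peaks with another ZT10 peak in percent (vertical axis) within windows from 1 to 200 kb (horizontal axis, log scale); points are shares with 95% Wilson intervals for distal (red), promoter-proximal (blue) and intermediate peaks (grey). The red points lie below the blue ones up to 10 kb and above them at 20, 50 and 100 kb, and all classes reach about 94 to 95% at 200 kb.

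Some distal peaks referred to the same TSS as another listed peak. For 606 distal peaks (35.9%, 33.6 to 38.2%) the reference point was shared with at least 1 other listed peak, which fixed its position and strand. Among intermediate peaks the share with a shared point was 29.7% (242 of 816, 26.6 to 32.9%), and the difference was not tested. The 606 distal peaks belonged to 363 points, of which 151 had 1 distal peak, 185 had 2, 23 had 3 and 4 had 4. Among the 212 points with at least 2 distal peaks, all distal peaks were downstream at 94, all upstream at 64, and at 54 they lay on both sides. The other 1084 distal peaks shared their point with no listed peak.

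A distal peak seldom had a promoter peak of Rev-erbα at its own TSS. Only 112 distal peaks (6.63%, 5.54 to 7.91%), at 94 points, shared their point with a DBD-independent peak within 1 kb. Among intermediate peaks the share was 7.48% (61 of 816), a difference of -0.848 points that was not past the threshold (-3.14 to 1.21, Fisher's exact test, adjusted p = 0.549). Counting any ZT10 peak, 177 of the 606 distal peaks with a known point had one within 1 kb of it, and at 63 of these no listed peak was among them. At the mirror position, equally far on the opposite side of the distal peak, 10 of 606 had one. A point is known only where another listed peak shares it. That choice favours listed peaks near the point and not at the mirror position, so these counts are not a like comparison. For the 1084 peaks whose point could lie on either side, 119 had a ZT10 peak at 1 of the candidate positions and 4 at both. Between 10.7% (181 peaks) and 17.8% of distal peaks therefore had a ZT10 peak within 1 kb of their reference point, and at least 1390 of 1690 (82.2%, 80.4 to 84.0%) had none in the list. For intermediate peaks the same bounds were 9.56% and 18.9%.

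Where a distal and a promoter-proximal peak shared a point, neither was regularly the higher. At 77 points with exactly 1 of each, the first value was higher at the distal peak in 37, equal in 1 and higher at the promoter-proximal peak in 39. Median first values there were 12 and 13.

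The 5 points named next had the highest summed first value of distal peaks among the 27 points with at least 3 of them. A point on the plus strand of chromosome 4, at 102242666, had 3 upstream distal peaks. They lay at -76424, -58966 and -12415 bp with first values of 62, 34 and 17, and an intermediate peak at 7783 bp had a first value of 29. The highest value of this group was thus at its most distant member, at position 51 of the ZT10 list. All 4 ZT10 peaks in the 84.2 kb they spanned were DBD-independent.

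A point on the minus strand of chromosome 1, at 135320790, likewise had upstream distal peaks alone, at -84246, -28551 and -16313 bp with first values of 32, 8 and 49. On the minus strand of chromosome 16, at 46010527, 4 distal peaks lay downstream, at 19826, 23858, 64855 and 82680 bp, with first values of 23, 20, 16 and 28. No unlisted ZT10 peak fell within either group. Values within the chromosome 16 group were close to one another, and those on chromosome 1 were not.

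The other named points each had 1 dominant peak. On the minus strand of chromosome 4, at 134828676, a peak 51415 bp downstream had a first value of 63, and 2 upstream peaks, at -26238 and -10241 bp, had values of 7 and 10. The 77.7 kb from the first to the last also held 4 ZT10 peaks outside the DBD-independent list. At 119231546 on chromosome 9, minus strand, 3 downstream peaks at 13100, 16394 and 24446 bp had first values of 15, 46 and 10. A point on the plus strand of chromosome 12, at 7984484, had 4 distal peaks with the same sum of 71 and came after it by chromosome order.

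**Figure D5:**
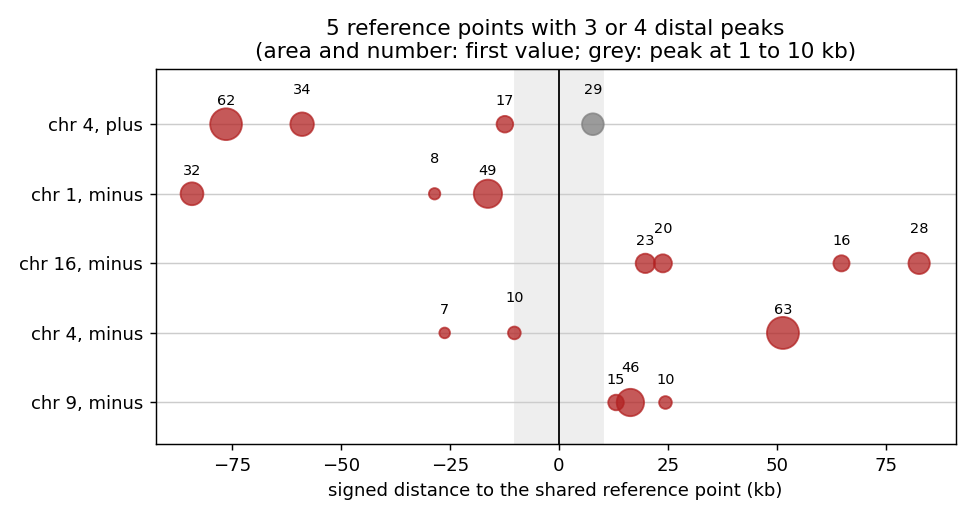
Listed peaks at the 5 named reference points (rows, by chromosome and strand) by signed distance to the shared point in kb (horizontal axis, 0 is the point); circle area and the number above give the first value, red circles are distal and the grey circle is an intermediate peak. First values of distal peaks run from 7 to 63, and no row has a peak within 1 kb of its point.

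The spans without a TSS around distal peaks also placed ZT10 peaks that carry no distance of their own. The spans covered 114.3 Mb in all. Inside the span of another listed peak, and more than 10 kb from its ends, lay 1019 ZT10 peaks, which must be more than 10 kb from a TSS if the distances are to the nearest one. Of these, 318 were DBD-independent (31.2%, 28.4 to 34.1%) and 701 were not. The DBD-independent share of the whole ZT10 list was 30.4%, inside this interval. The 318 listed peaks had a median position of 3765.5 in the ZT10 list and the 701 others one of 6091. Across 5 bins of equal size along the list the DBD-independent share was 41.9% (101 of 241), 41.5% (90 of 217), 28.4% (54 of 190), 26.2% (55 of 210) and 11.2% (18 of 161). A fall along the list, seen for the DBD-independent list as a whole, was thus also present among peaks in distal territory, which is the same peaks in part and not separate evidence. This comparison was set after the data had been seen, and each span depends on a listed peak, so territory without one is not covered.

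Distal peaks were found on all 20 chromosomes that hold listed peaks, and at the limit of 10 kb no chromosome passed the test after adjustment. The share of listed peaks that were distal was highest on chromosome 12, with 75 of 125 (60.0%, 51.2 to 68.2%), and lowest on chromosome 17, with 60 of 160 (37.5%, 30.4 to 45.2%). On chromosome 7 it was 38.4% (93 of 242) and on chromosome 1 55.2% (133 of 241). Tested against all other chromosomes with Fisher's exact test, 0 of 20 chromosomes (0%) passed after adjustment. At an unadjusted p under 0.05 there were 7, of which 3 had a higher and 4 a lower share, and the smallest adjusted p was 0.0503 (chromosomes 7 and 12). With the limit set at 20 kb, 3 chromosomes passed by the same test. Chromosomes 7 (24.8%, 60 of 242) and 11 (25.7%, 72 of 280) had lower and chromosome 13 (43.5%, 70 of 161) a higher share of such peaks, each at an adjusted p of 0.0411 by Fisher's exact test.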

How the data were processed

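Rev-erbα ChIP-seq of 6 mouse livers (3 WT and 3 HNF6 KO) was available as 2 peak lists of the whole series, with 0 columns of values per sample. Bowtie, HOMER and build mm9 were used per the submitters' processing notes. Tool versions, settings of the peak calling, which samples were pooled and how the DBD-independent list was made are not given in the sources. The deposited signed distance and the 2 deposited whole numbers per peak have no header, and the numbers were treated as a score of the authors with no stated unit or normalization. The planned comparison of genotypes, which needs counts per sample, was not made.

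Lists were matched by chromosome, start and end. The members and all measures were chosen with earlier results of these data known. Reference points were rebuilt as peak centre minus distance (plus strand) or plus distance (minus strand), kept where at least 2 peaks met within 1 bp, and may be off by 1 bp. Shares carry 95% Wilson intervals and differences of shares 95% Newcombe intervals. Fisher's exact test was adjusted over 11 class comparisons and separately over 20 chromosomes. For an alternative setting the adjustment was repeated over the same 11 tests with its p-values put in place. Named sites were the 5 highest first values, the 2 nearest the limit on each side and direction, the 2 farthest in each direction, the 2 highest and 2 lowest ratios at a first value of at least 20, and the 5 points of highest summed first value with at least 3 distal peaks. For any other site the text says that it was picked with its values known. No mm9 genome or annotation was used here, so genes, exons, sequences and motifs were not analysed. The routines were tested on simulated data. Python 3.11.15, numpy 2.4.6, pandas 2.3.3, SciPy 1.17.1 and matplotlib 3.10.9 were used.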

Additional observations from a re-analysis of the deposited data

How the results depend on the processing

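In 43 of 51 alternatives, tried on 14 results, direction and side of the threshold, or the value, stayed the same. Against promoter-proximal peaks, the difference in the share of distal peaks high in the ZT10 list turned from -6.85 to 5.92 points when positions 1 to 1176 replaced positions 1 to 5883. The difference in neighbours turned from -3.12 points at 10 kb to 5.24 at 50 kb, and at 5 kb it was -4.05 and passed the threshold. The difference in the share of high first values, -4.37 points, passed it on autosomes alone at -4.93, and was 3.40, not past it, at the upper quartile of 19. The difference in the share with a lower second value, 3.82 points, passed it at 5.44 among the 2982 peaks with ordered identifiers. Against intermediate peaks it went from -0.957 to 0.926 points for ratios below 0.8, and neither was past the threshold. With distal set at above 20 kb, which left 1194 peaks, 3 chromosomes passed in place of 0. These were chromosomes 7 and 11 with lower and chromosome 13 with higher shares. Beyond the changes that follow from the windows and limits themselves, the cause was not tested. Matching by 1 bp of overlap and exact matching of points changed no membership and are no sign of stability. Alternatives on sequence were not run. No paired analysis was possible because neither file gives values for single livers, and for the same reason no replicate was left out. The depth of the libraries is unknown, so a peak missing from a list may lie below detection.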

Other observations

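The identifiers of the listed peaks fall into a run ordered by distance, up to identifier 25915, and a remainder without that order. Of the distal peaks, 1381 belonged to the ordered run and 309 (18.3%) to the remainder, against 11.6% of promoter-proximal and 19.98% of intermediate peaks. The median first value of distal peaks was 13 in the ordered run and 10 in the remainder, and their median positions in the ZT10 list were 3710 and 6048. The upstream shares were 41.3% and 43.4%, and 62.9% and 54.7% of peaks had a second value lower than the first. What separates the 2 kinds of identifier is not stated in the file, and its part in the results above was not tested beyond the alternative restricted to ordered identifiers.

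The 4 points with 4 distal peaks each, looked at after their values were seen, ranged from compact to wide. On the plus strand of chromosome 11, at 101594271, 4 upstream distal peaks spanned 11.4 kb with a highest first value of 23. On the minus strand of chromosome X, at 11932123, 4 downstream distal peaks spanned 13.9 kb with a highest first value of 19. The points on chromosomes 16 and 12 named in the report spanned 62.9 and 101.1 kb, and the highest first value at each was 28.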
